A study of Mus musculus with 9 samples.

Results

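The Toll-like receptors (TLRs) Tlr1, Tlr2, Tlr3, Tlr4, Tlr6, Tlr7, Tlr8 and Tlr9 and the adaptor genes Myd88 and Ticam1 were followed across 9 mouse tumours. They were chosen with earlier results of these data known, and 10 of 10 were found by name among the 34745 genes of the deposited table. The tumours were grown under the skin from LLC (Lewis lung carcinoma), a transplantable line of C57BL/6 mice that the labels call a lung adenocarcinoma. In the first group, BTZ+anti-PDL1, 3 tumours came from mice given bortezomib (BTZ), a proteasome inhibitor, at 0.5 mg/kg together with an antibody against the checkpoint ligand PDL1 at 10 mg/kg. The second group, anti-PDL1, held 3 tumours from mice given the same antibody dose without BTZ. The third group, isotype, held 3 tumours from mice given a control antibody at 10 mg/kg. All hosts were wild-type males aged "6 to 8", with no unit in the labels, and all agents were given into the peritoneum. Mice were assigned to groups at random when tumours were near 100 mm3. No group received BTZ without the antibody, and the dosing schedule and time of harvest are not given in the sources used here.

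TLRs are innate immune receptors that bind molecules of microbes and of damaged cells. Tlr1, Tlr2, Tlr4 and Tlr6 act at the cell surface, and Tlr3, Tlr7, Tlr8 and Tlr9 act in endosomes, where they meet nucleic acids. All of these receptors except Tlr3 signal through the adaptor protein of Myd88, while Tlr3, and Tlr4 by its other route, use TRIF, the protein of Ticam1. In tumours these genes are known mainly from myeloid cells such as macrophages and dendritic cells, and some tumour and stromal cells express them too.

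Each library held 18.52 M to 21.51 M counts (M, mega). Levels are given as CPM, counts scaled to a common library size with TMM factors of edgeR, and 14506 genes passed its filter on low counts, all 10 members among them. The 14 macrophage and monocyte marker genes were all present, with summed levels of 2985 to 4167 CPM in BTZ+anti-PDL1 tumours, 3693 to 3844 CPM in anti-PDL1 tumours and 2156 to 3871 CPM in isotype tumours. Isotype tumour 2 stood apart, with the lowest macrophage sum (2156 CPM) and the lowest T cell sum (5.35 CPM, against 20.9 to 38.2 CPM in the other 8 tumours). Skeletal muscle markers ranged from 4.53 to 809 CPM in BTZ+anti-PDL1 tumours, 109 to 1043 CPM in anti-PDL1 tumours and 5.46 to 2857 CPM in isotype tumours. Of the 8 markers for epithelium and lung adenocarcinoma, Nkx2-1, Sftpc and Sftpb had no count in any tumour and Epcam had 0 to 5 counts. The others of this list that were named as markers were present, with keratin genes Krt18 at 56.6 to 113 CPM and Krt8 at 3.64 to 26.6 CPM. Cdh1 had 1.44 to 9.3 CPM and Napsa, a lung adenocarcinoma marker, had 4.16 to 8.96 CPM. In bulk tumours, fewer cells of a type and less RNA per cell cannot be told apart.

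Tlr2 and its partner receptors were measured first. The Tlr2 protein pairs with that of Tlr1 or Tlr6 to bind bacterial lipopeptides. Tlr2 (mm10 chr3:83836272-83841767, minus strand) had 39.9, 39.1 and 26.6 CPM in BTZ+anti-PDL1 tumours, 43.2, 35.5 and 35.3 CPM in anti-PDL1 tumours and 34.7, 16.7 and 27.5 CPM in isotype tumours. Every anti-PDL1 tumour was above every isotype tumour, and BTZ+anti-PDL1 tumour 3 lay among the isotype tumours. Tlr1 (chr5:64924679-64933563, minus strand) had 14.0, 13.5 and 13.9 CPM in BTZ+anti-PDL1 tumours, 13.1, 14.3 and 13.3 CPM in anti-PDL1 tumours and 7.45, 6.38 and 13.5 CPM in isotype tumours. Isotype tumours 1 and 2 were low, while isotype tumour 3 lay among the 6 treated tumours. Tlr6 (chr5:64952031-64960097, minus strand) had 4.45, 4.49 and 4.32 CPM in BTZ+anti-PDL1 tumours, 4.40, 5.63 and 5.53 CPM in anti-PDL1 tumours and 3.73, 3.07 and 5.07 CPM in isotype tumours. Its groups overlapped in all 3 comparisons.

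Tlr1 and Tlr6 are neighbours on chromosome 5, with 18.5 kb between them, and part of their sequence is the same. Of the 50-base windows in the transcripts of GENCODE M21, 454 were shared by the pair, which is 13.6% of those of Tlr1 and 12.3% of those of Tlr6. No other pair of members shared a 50-base window. The longest identical run, 229 bases inside the coding sequence of both, is shown because reads from it cannot be assigned to either gene. It lies at mm10 chr5:64925537-64925765 in Tlr1 and at chr5:64953828-64954056 in Tlr6, both on the minus strand, and no letter is in capitals because all of it is shared.
Tlr1 and Tlr6: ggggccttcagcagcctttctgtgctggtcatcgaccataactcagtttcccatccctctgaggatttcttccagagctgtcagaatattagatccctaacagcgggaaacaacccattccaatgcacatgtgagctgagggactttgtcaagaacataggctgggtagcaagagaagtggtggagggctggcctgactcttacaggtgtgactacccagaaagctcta
The counts of Tlr1 and Tlr6 are therefore uncertain to the extent that the authors' counting split such reads. The ratio of Tlr1 to Tlr6 counts was 3.13, 3.00 and 3.23 in BTZ+anti-PDL1 tumours, 2.97, 2.53 and 2.42 in anti-PDL1 tumours and 2.00, 2.08 and 2.67 in isotype tumours. Every BTZ+anti-PDL1 tumour had a higher ratio than every tumour of the other 2 groups.

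Tlr4, which binds bacterial lipopolysaccharide, lay on 2 levels that cut across the groups. It spans 102701 bp at chr4:66827584-66930284 on the plus strand and has 4 transcripts in GENCODE M21, of which 2 are protein coding. Its raw counts were 157, 981 and 939 in BTZ+anti-PDL1 tumours, 971, 944 and 159 in anti-PDL1 tumours and 102, 814 and 992 in isotype tumours. Scaled for depth these were 7.86, 52.4 and 48.9 CPM in BTZ+anti-PDL1 tumours, 48.6, 47.9 and 7.45 CPM in anti-PDL1 tumours and 5.35, 40.3 and 51.9 CPM in isotype tumours. Each group thus held 1 low tumour and 2 high ones, with 5.35 to 7.86 CPM in the 3 low tumours and 40.3 to 52.4 CPM in the 6 high ones. The lowest high value was 5.13 times the highest low value.

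The split of Tlr4 was known when the genes were chosen, and the following measure, set up with it in view, only describes it. A gene was taken to lie on 2 levels if the largest gap between neighbouring tumours, on log2(CPM + 0.5) and with at least 2 tumours on each side, was at least 0.5 and at least 2 times the range of the wider side. By this rule 114 of 14506 genes (0.786%) lay on 2 levels, and the gap of Tlr4, 2.29 on the log2 scale against a range of 0.51 on its wider side, ranked 12 among them. Of the others, 0 had the same low tumours as Tlr4. Among the 10 members, Tlr1 was the other one on 2 levels, with a gap of 0.77 and isotype tumours 1 and 2 as the low ones. Of 77 further genes of the TLR pathway that were tested, 0 lay on 2 levels.

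**Figure D1:**
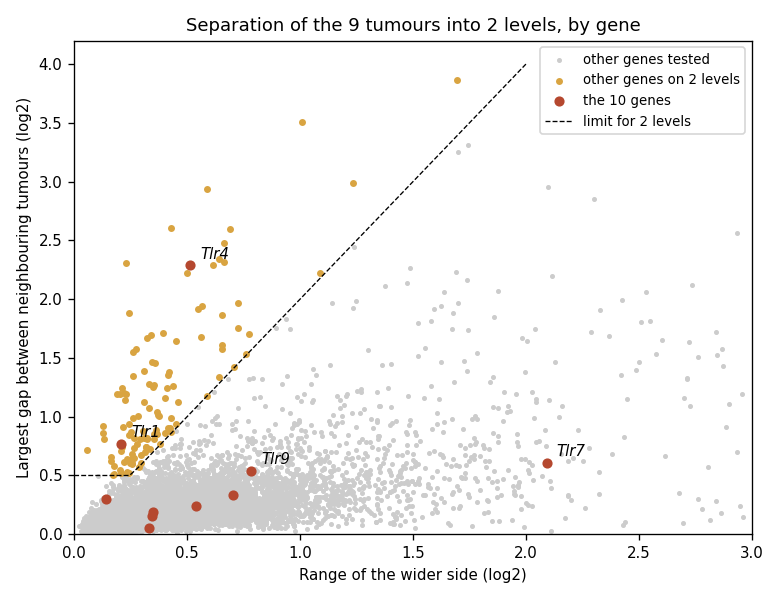
For each gene tested, the largest gap between neighbouring tumours (y axis) is plotted against the range of the wider side of that gap (x axis), both on the log2 scale. Tlr4 lies at a gap of 2.29 and Tlr1 at 0.77, both left of the dashed limit for 2 levels, while Tlr7 and Tlr9 lie right of it. Genes with a range over 3 are not drawn.

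The genes of the proteins that hand lipopolysaccharide to Tlr4 were not on 2 levels. Ly96 (MD-2, the part of the receptor complex that holds the ligand) had 3.35, 3.95 and 2.97 CPM in BTZ+anti-PDL1 tumours, 4.60, 3.55 and 3.32 CPM in anti-PDL1 tumours and 4.51, 3.71 and 4.86 CPM in isotype tumours. Cd14, the co-receptor, had 66.4, 52.2 and 44.0 CPM in BTZ+anti-PDL1 tumours, 51.2, 43.0 and 49.5 CPM in anti-PDL1 tumours and 55.8, 56.1 and 83.8 CPM in isotype tumours. Lbp, the lipopolysaccharide-binding protein, had 2.40, 1.55 and 1.82 CPM in BTZ+anti-PDL1 tumours, 5.20, 7.21 and 2.58 CPM in anti-PDL1 tumours and 0.63, 2.62 and 5.28 CPM in isotype tumours. The tumour low in Tlr4 was also the lowest in Lbp within the anti-PDL1 and isotype groups, and the highest within the BTZ+anti-PDL1 group. The 3 tumours low in Tlr4 had macrophage sums of 3919, 3745 and 3520 CPM, within the range of the other 6 tumours (2156 to 4167 CPM). Their muscle sums were 809, 213 and 5.46 CPM, also within the range of the other 6 (4.53 to 2857 CPM). Ranges this wide say little, and the part of any cell type in the split of Tlr4 was not tested. With 1 low tumour in each group, the fitted fold changes of Tlr4 were 0.16 ± 1.07, 0.09 ± 1.07 and 0.071 ± 1.07 (log2, SE) for BTZ+anti-PDL1 against isotype, anti-PDL1 against isotype and BTZ+anti-PDL1 against anti-PDL1. These errors were the widest of the 10 genes in each comparison.

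Among the endosomal receptors, Tlr7, a receptor for single-stranded RNA, separated the groups most. Tlr7 (chrX:167304929-167330558, minus strand) had 15.3, 17.5 and 15.0 CPM in BTZ+anti-PDL1 tumours, 8.10, 8.17 and 9.65 CPM in anti-PDL1 tumours and 7.29, 1.88 and 7.27 CPM in isotype tumours. All BTZ+anti-PDL1 tumours were above all anti-PDL1 tumours, which were above all isotype tumours, and isotype tumour 2 was far below the rest with 38 counts. The mean was 15.9 ± 1.38 CPM in BTZ+anti-PDL1 tumours, 8.64 ± 0.873 CPM in anti-PDL1 tumours and 5.48 ± 3.12 CPM in isotype tumours (SD, n = 3 each). The fold change of BTZ+anti-PDL1 against isotype was 2.91 (log2 1.54 ± 0.413, SE), with an adjusted p = 0.47 over all genes by the edgeR quasi-likelihood test with Benjamini-Hochberg adjustment. DESeq2 gave the same size (log2 1.54) with an adjusted p = 0.0133, so Tlr7 was called by that tool and not by edgeR. Without isotype tumour 2 the log2 fold change was 1.14, with an edgeR adjusted p = 0.0765.

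Against anti-PDL1 alone, Tlr7 in BTZ+anti-PDL1 tumours was 1.84 times as high (log2 0.88 ± 0.403, edgeR adjusted p = 0.861), and it was not called by DESeq2 either (adjusted p = 0.678). Anti-PDL1 against isotype gave log2 0.66 ± 0.411 (edgeR adjusted p = 0.807), and 0.25 without isotype tumour 2. The comparisons share tumours, so their values are not independent. T cell markers, 8 of 8 present, summed to 23.3 to 38.2 CPM in BTZ+anti-PDL1 tumours, 24.3 to 30.3 CPM in anti-PDL1 tumours and 5.35 to 28.9 CPM in isotype tumours. Plasmacytoid dendritic cells, which are rich in Tlr7 and Tlr9, were marked by 6 genes that summed to 297 to 311 CPM in BTZ+anti-PDL1 tumours, 240 to 293 CPM in anti-PDL1 tumours and 214 to 341 CPM in isotype tumours. Most of that sum came from Bst2 and Tcf4, which other cells express too, while Siglech, the most specific of them, had 0.641 to 1.35 CPM in BTZ+anti-PDL1 tumours, 1.10 to 1.40 CPM in anti-PDL1 tumours and 0.198 to 0.784 CPM in isotype tumours. The B cell list of 6 genes summed to 1.80 to 2.71 CPM in BTZ+anti-PDL1 tumours, 1.17 to 1.52 CPM in anti-PDL1 tumours and 0.787 to 2.20 CPM in isotype tumours, with 0 to 5 counts of Ms4a1. NK cell markers, 6 of 6 present, summed to 15.0 to 17.8 CPM in BTZ+anti-PDL1 tumours, 12.1 to 15.0 CPM in anti-PDL1 tumours and 10.9 to 12.4 CPM in isotype tumours. Of the 103 marker gene IDs of all lists, 3 (Ly6c2, Bst2 and Clec9a) were higher in every BTZ+anti-PDL1 tumour than in the other 6 tumours. Of all genes tested, 6.96% were wholly higher in BTZ+anti-PDL1 than in isotype tumours and 7.33% than in anti-PDL1 tumours. The share wholly higher than both was not determined, so the count of 3 is a description only. Ly6c2, a marker of inflammatory monocytes, was the only 1 of the 103 IDs that kept the order of Tlr7 without overlap. The share of all genes that kept this order was not determined either, so this too is a description only. None of the other IDs of the macrophage and monocyte list kept it. Ly6c2 had 9.11 to 11.9 CPM in BTZ+anti-PDL1 tumours, 4.80 to 8.02 CPM in anti-PDL1 tumours and 2.33 to 4.55 CPM in isotype tumours. Ccr2, another monocyte marker of the same list, overlapped between the groups, with 59.4 to 87.5, 53.7 to 72.2 and 30.2 to 68.5 CPM in the same order. The part of these cell types in the Tlr7 result was not tested.

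Tlr8, whose product in mice restrains Tlr7, lies 40.6 kb from Tlr7 on the same strand (chrX:167242696-167264329). It had 17.1, 17.5 and 16.1 CPM in BTZ+anti-PDL1 tumours, 19.0, 15.9 and 16.7 CPM in anti-PDL1 tumours and 12.8, 9.06 and 13.4 CPM in isotype tumours. Both treated groups lay wholly above the isotype tumours and overlapped each other. The log2 fold change was 0.53 ± 0.152 for BTZ+anti-PDL1 against isotype (edgeR adjusted p = 0.492) and 0.55 ± 0.152 for anti-PDL1 against isotype (edgeR adjusted p = 0.763). It was -0.025 ± 0.151 for BTZ+anti-PDL1 against anti-PDL1 (edgeR adjusted p = 0.989).

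The 2 neighbours on chromosome X were set against each other within each tumour, a comparison chosen after their values were seen. The ratio of Tlr7 to Tlr8 counts was 0.895, 1.00 and 0.932 in BTZ+anti-PDL1 tumours, 0.427, 0.513 and 0.577 in anti-PDL1 tumours and 0.570, 0.208 and 0.543 in isotype tumours. Every BTZ+anti-PDL1 tumour had a higher ratio than every other tumour. The mean log2 ratio was -0.087 ± 0.0812 in BTZ+anti-PDL1 tumours and -0.99 ± 0.218 in anti-PDL1 tumours (SD, n = 3 each), a difference of 0.91 with p = 0.1 in a two-sided exact permutation test. In isotype tumours it was -1.32 ± 0.821 (SD, n = 3), and BTZ+anti-PDL1 tumours were higher by 1.23 with the same exact p = 0.1. With 3 tumours a group 0.1 is the smallest p possible, and it became 0.15 when adjusted over the 6 tests of this ratio and that of Tlr1 to Tlr6. For Tlr1 to Tlr6, BTZ+anti-PDL1 tumours were higher by 0.25 on the log2 scale than anti-PDL1 tumours and by 0.48 than isotype tumours, each with an exact permutation p = 0.1. This ratio was not planned either, and its counts are uncertain because of shared reads. For both ratios the p of 0.1 only restates the separation already seen and adds no support to it.

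Tlr9, a receptor for unmethylated CpG DNA at chr9:106222598-106226883 on the plus strand, had 9.71, 9.83 and 11.4 CPM in BTZ+anti-PDL1 tumours, 12.9, 11.2 and 9.32 CPM in anti-PDL1 tumours and 6.24, 3.42 and 9.67 CPM in isotype tumours. The BTZ+anti-PDL1 tumours lay above the isotype tumours by a narrow margin (9.71 against 9.67 CPM), and anti-PDL1 tumour 3 lay below isotype tumour 3. The log2 fold change was 0.68 ± 0.313 for BTZ+anti-PDL1 against isotype and 0.79 ± 0.313 for anti-PDL1 against isotype (edgeR adjusted p = 0.586 and 0.763). These values of Tlr9 were 0.38 and 0.49 without isotype tumour 2, and 1.09 and 1.21 without isotype tumour 3. Tlr3, a receptor for double-stranded RNA at chr8:45395665-45410608 on the minus strand, had 13.3, 12.2 and 13.5 CPM in BTZ+anti-PDL1 tumours, 12.7, 9.18 and 12.6 CPM in anti-PDL1 tumours and 9.60, 9.40 and 9.78 CPM in isotype tumours. Isotype tumours hardly varied, and all BTZ+anti-PDL1 tumours were above them, while anti-PDL1 tumour 2 was below all 3. The log2 fold change of Tlr3 for BTZ+anti-PDL1 against isotype was 0.44 ± 0.14 (edgeR adjusted p = 0.52). In GENCODE M21 an antisense transcript, Gm45542, overlaps 381 exonic bases of Tlr3, and the strand setting of the counting is not given in the sources used here. Gm45542 is not among the deposited genes, and the deposited span of Tlr3 differs from that in M21. The overlap and the exon length of Tlr3 given here may therefore differ from those of the gene model that was counted.

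Myd88 and Ticam1 spread least among the 10 genes on the log2 scale. Myd88 (chr9:119335934-119341411, minus strand) had 66.3, 64.4 and 60.8 CPM in BTZ+anti-PDL1 tumours, 59.8, 62.0 and 57.4 CPM in anti-PDL1 tumours and 55.5, 45.5 and 63.3 CPM in isotype tumours. Isotype tumour 3 lay among the treated tumours, so the groups overlapped. Its log2 fold change was 0.22 ± 0.109 for BTZ+anti-PDL1 against isotype and 0.12 ± 0.109 for anti-PDL1 against isotype (edgeR adjusted p = 0.613 and 0.849). The opposite-strand gene Acaa1a, which had 792 to 1008 counts, overlaps 290 exonic bases of Myd88, so some of these counts may belong to either gene. Ticam1 (chr17:56269319-56276786, minus strand) had 25.2, 18.3 and 19.3 CPM in BTZ+anti-PDL1 tumours, 27.5, 24.1 and 21.7 CPM in anti-PDL1 tumours and 23.2, 21.5 and 22.6 CPM in isotype tumours. It was the gene of the 10 with a negative log2 fold change for BTZ+anti-PDL1 against isotype, -0.10 ± 0.139 (edgeR adjusted p = 0.85).

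**Figure D2:**
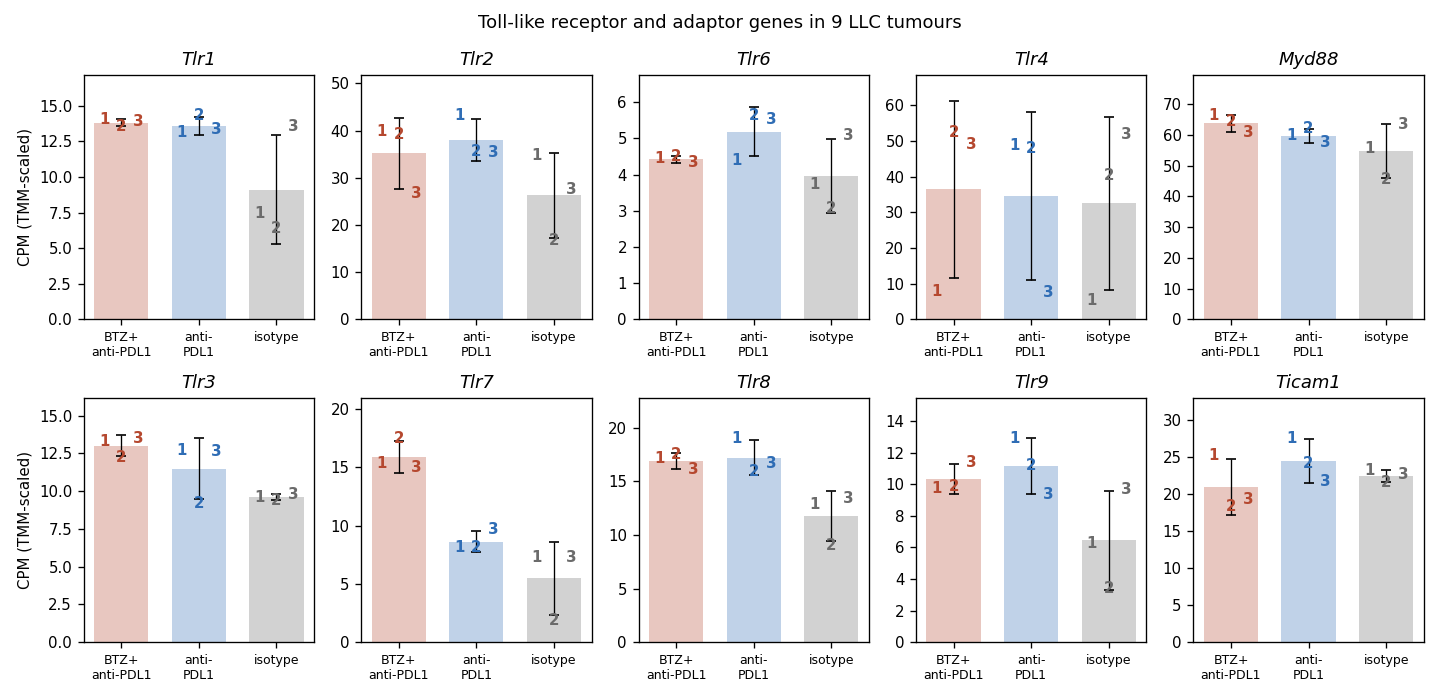
Level of each gene in CPM (y axis, from 0) in the 3 groups, with the numerals 1 to 3 at the value of each tumour, bars at the group mean and error bars of 1 SD (n = 3). Tlr7 separates the groups without overlap, at 15.0 to 17.5 CPM in BTZ+anti-PDL1 tumours against 8.10 to 9.65 CPM in anti-PDL1 tumours and 1.88 to 7.29 CPM in isotype tumours, and Tlr4 has 1 low tumour in every group.

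Set against all genes tested, no member was called by edgeR at an adjusted p under 0.05 in any of the 3 comparisons, where 0.00689%, 0.0138% and 0.0138% of all genes were called (BTZ+anti-PDL1 against isotype, anti-PDL1 against isotype and BTZ+anti-PDL1 against anti-PDL1). DESeq2 called 1 member, Tlr7, in BTZ+anti-PDL1 against isotype, beside 0.772% of all genes, and 0 members in the other 2 comparisons, where it called 0.103% (anti-PDL1 against isotype) and 0.4% of all genes. At an unadjusted p under 0.05 and with the higher level in BTZ+anti-PDL1 tumours, edgeR passed 4 of 10 members against isotype (Tlr1, Tlr3, Tlr7 and Tlr8), beside 4.42% of all genes. In anti-PDL1 against isotype it passed 3 members (Tlr1, Tlr8 and Tlr9), beside 3.01% of all genes, and in BTZ+anti-PDL1 against anti-PDL1 it passed 0, beside 3.15%. The groups did not overlap, with BTZ+anti-PDL1 higher than isotype, in 4 members (Tlr3, Tlr7, Tlr8 and Tlr9), beside 6.96% of all genes. Anti-PDL1 was wholly above isotype in 3 members (Tlr2, Tlr7 and Tlr8), beside 6.08%, and BTZ+anti-PDL1 wholly above anti-PDL1 in 1 (Tlr7), beside 7.33%. The members were chosen with earlier results of these data known, so these counts and those that follow describe them and do not test the list.

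The fold change of BTZ+anti-PDL1 against isotype was above 0 for 9 of 10 members, as it was for 49.7% of all genes, and the median log2 fold change was 0.43 over the members and -0.0011 over all genes. In anti-PDL1 against isotype it was above 0 for 10 of 10 members and 49.0% of all genes, with a median of 0.46 over the members and -0.0034 over all genes. In BTZ+anti-PDL1 against anti-PDL1, 5 of 10 members and 50.8% of all genes were above 0, and the median was 0.00016 over the members and 0.0029 over all genes. The first 2 of these counts rest on the same isotype tumours. Isotype tumour 2, the tumour with the lowest macrophage and T cell sums, was the lowest of the 9 tumours in 7 of the 10 genes, the exceptions being Tlr3, Tlr4 and Ticam1. Without it, the median over the members was 0.37 for BTZ+anti-PDL1 against isotype and 0.27 for anti-PDL1 against isotype. Without isotype tumour 3, edgeR called Tlr1 in BTZ+anti-PDL1 against isotype (log2 1.00, adjusted p = 0.0373), beside 0.136% of all genes. That tumour was the richest in muscle markers and also the highest isotype tumour in Tlr1 (13.5 CPM, against 7.45 and 6.38 CPM). Leaving it out thus kept only the isotype tumours low in Tlr1. Without the 3 muscle-rich tumours, 1 in each group, Tlr1 was not called (log2 0.99, edgeR adjusted p = 0.221). With all tumours the log2 fold change of Tlr1 was 0.60 ± 0.24 (edgeR adjusted p = 0.561), and without isotype tumour 2 it was 0.40 (edgeR adjusted p = 0.932).

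**Figure D3:**
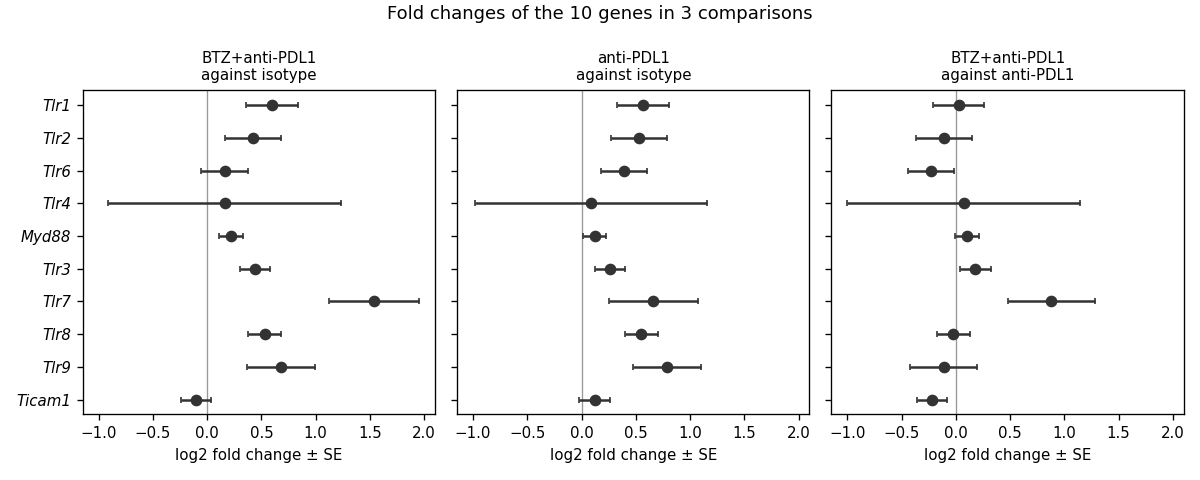
Log2 fold changes of the 10 genes (x axis, points, with bars of 1 SE from the edgeR test) in the 3 comparisons. Tlr7 lies at 1.54 and 0.88 in the comparisons of BTZ+anti-PDL1 with isotype and with anti-PDL1, and Tlr4 has the widest bars, 1.07 to each side.

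Levels were compared between genes per length. Per kb of the exons in GENCODE M21, the order of the mean over 9 tumours was Myd88 (23.1 CPM per kb), Tlr2 (11.0), Ticam1 (7.55), Tlr4 (6.21), Tlr8 (4.26), Tlr1 (3.63), Tlr9 (2.67), Tlr7 (2.45), Tlr3 (2.18) and Tlr6 (1.21), all in CPM per kb. The mean of Tlr4 is a value that no tumour had, since the gene ranked 9 or 10 of the 10 in its 3 low tumours (0.963 to 1.41 CPM per kb) and 2 to 4 in the 6 high ones (7.25 to 9.43 CPM per kb). Neighbours in this order were separated by more than their SDs in 2 places, between Myd88 and Tlr2 and between Tlr3 and Tlr6. The deposited FPKM (fragments scaled by gene length and library size) gave another order below the fourth place, with Tlr9 at 2.68, Tlr3 at 1.99, Tlr1 at 1.98, Tlr8 at 1.96, Tlr6 at 1.10 and Tlr7 at 0.874 FPKM. The gene length that these FPKM values imply was 11508 bp for Tlr7 and 7810 bp for Tlr8, against 4082 bp and 3586 bp of exons once overlaps are merged. The implied length of Tlr7, which has 6 transcripts in M21, was thus 2.82 times its merged exons and 0.947 of the sum of its transcripts. That of Tlr3, with 9 transcripts, was 1.1 times its merged exons and 0.326 of the sum. These were the exceptions, since for 8 of the 10 genes the implied length was within 5% of the sum of the transcripts. For 3 of those 8 it equalled the merged exons too. The place of Tlr7 and Tlr8 in the order depends on the length used. Fold changes from FPKM depend on it too once an offset is added, and for Tlr7 in BTZ+anti-PDL1 against isotype limma gave a log2 difference of 0.72 on log2(FPKM + 1) and 1.53 on log2(FPKM + 0.1), against 1.54 from the counts. Against anti-PDL1 these values for Tlr7 were 0.45, 0.82 and 0.88.

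**Figure D4:**
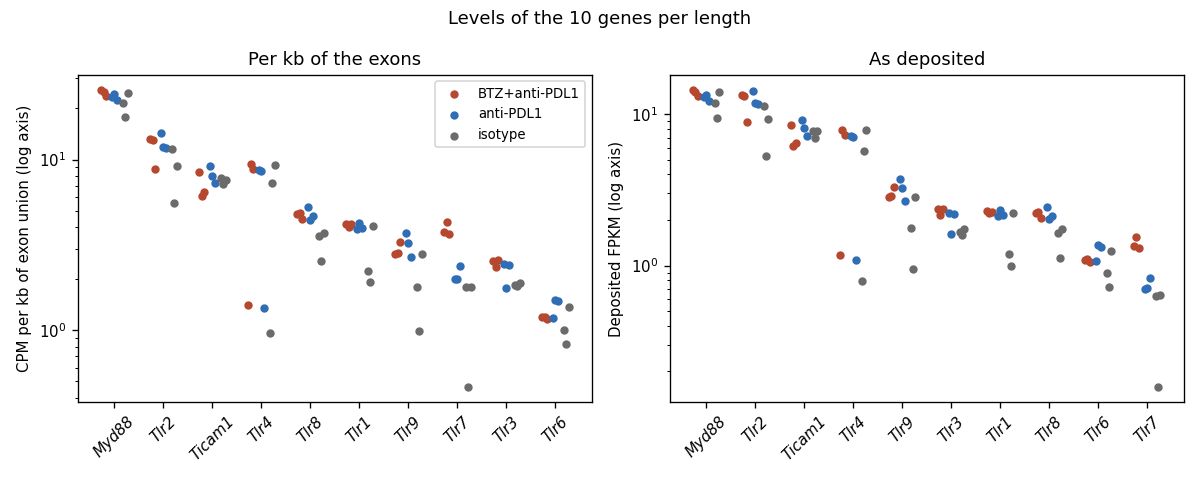
Level of each gene in each tumour, per kb of merged exons (left) and as deposited FPKM (right), on log axes, with genes ordered by their mean on each scale and points coloured by group. Myd88 is highest on both scales, and Tlr7 is eighth per kb of exons (2.45 CPM per kb) and last in FPKM (0.874 FPKM).

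Sequence before the start of the genes was read for short motifs. RefSeq start sites (build GRCm38.p6) gave 10 windows of 250 upstream bases for 8 of the 10 genes, and none for Tlr4 and Tlr7. The motif GAGGAA, the core bound by the myeloid ETS factor PU.1, was searched on both strands and occurred in windows of Tlr1, Tlr8, Tlr9 and Ticam1, and in 23.3% of all 32851 windows. Tlr3, Tlr8 and Tlr9 were each higher in every BTZ+anti-PDL1 tumour than in every isotype tumour, and of these the window of Tlr3 held no match. Tlr8 and Tlr9, which did, are shown, at chrX:167264330-167264579 on the minus strand and chr9:106222348-106222597 on the plus strand, with the motif in capitals (as TTCCTC, its reverse complement, in Tlr8).
Tlr8: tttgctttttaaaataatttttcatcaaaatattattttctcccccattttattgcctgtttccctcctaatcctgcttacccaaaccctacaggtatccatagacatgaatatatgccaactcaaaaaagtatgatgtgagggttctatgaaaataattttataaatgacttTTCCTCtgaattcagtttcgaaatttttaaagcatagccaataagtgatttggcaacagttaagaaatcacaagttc
Tlr9: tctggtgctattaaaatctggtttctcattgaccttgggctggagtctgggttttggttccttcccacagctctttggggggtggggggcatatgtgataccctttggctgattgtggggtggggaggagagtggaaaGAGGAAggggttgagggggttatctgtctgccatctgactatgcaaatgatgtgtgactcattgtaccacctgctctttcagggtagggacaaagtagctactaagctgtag
The AP-1 motif TGACTCA, also searched on both strands and not overlapping the first, was found before Tlr9 and in 4.46% of all windows. These are matches of letters only, and a link between them and the levels was not tested.

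Other genes of the pathway were taken in 5 lists of 80 genes, of which 77 were tested. In these lists edgeR called 0 genes in any comparison, and at an unadjusted p under 0.05 it passed 5 higher and 7 lower in BTZ+anti-PDL1 against isotype, beside 4.42% and 4.18% of all genes. It passed 6 higher and 2 lower in anti-PDL1 against isotype, beside 3.01% and 3.34%, and 6 higher and 3 lower in BTZ+anti-PDL1 against anti-PDL1, beside 3.15% and 2.67%. By DESeq2, which called 0.772%, 0.103% and 0.4% of all genes in these comparisons, Irf7, Cxcl10 and Ptgs2 were called in BTZ+anti-PDL1 against isotype, 0 genes in anti-PDL1 against isotype, and Irf7 in BTZ+anti-PDL1 against anti-PDL1. Of the TLRs outside the 10 genes, Tlr13, which binds bacterial ribosomal RNA, had 37.3, 43.2 and 38.5 CPM in BTZ+anti-PDL1 tumours, 45.4, 42.4 and 40.0 CPM in anti-PDL1 tumours and 29.2, 24.1 and 38.9 CPM in isotype tumours. Its log2 fold change was 0.47 ± 0.155 for anti-PDL1 against isotype (edgeR adjusted p = 0.763). Tlr12 had 0.544 to 2.00 CPM, Tlr5 had 1.94 to 7.16 CPM, and Tlr11, at 1 to 12 counts, was too low to test.

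Among 19 co-receptors and genes of receptor folding and trafficking, the median log2 fold change was 0.11 for BTZ+anti-PDL1 against isotype, 0.11 for anti-PDL1 against isotype and -0.0047 for BTZ+anti-PDL1 against anti-PDL1. Unc93b1, which carries the endosomal receptors to their compartment, had 117, 113 and 114 CPM in BTZ+anti-PDL1 tumours, 128, 113 and 105 CPM in anti-PDL1 tumours and 94.3, 58.1 and 118 CPM in isotype tumours. Isotype tumour 2 was again the lowest. Cd180, a receptor related to Tlr4, had a log2 fold change of 0.79 ± 0.184 for anti-PDL1 against isotype and -0.40 ± 0.182 for BTZ+anti-PDL1 against anti-PDL1 (edgeR adjusted p = 0.763 and 0.861). Over 22 adaptors, kinases and ligases downstream of the receptors, the medians were 0.031, 0.081 and -0.055 for the same 3 comparisons. Irak3, an inhibitor of the kinases that Myd88 recruits, had 5.46, 4.54 and 5.72 CPM in BTZ+anti-PDL1 tumours, 7.05, 8.63 and 8.52 CPM in anti-PDL1 tumours and 4.57, 6.34 and 6.69 CPM in isotype tumours. All BTZ+anti-PDL1 tumours were below all anti-PDL1 tumours in Irak3 (log2 -0.62 ± 0.188, edgeR adjusted p = 0.703).

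Irf7, the interferon regulatory factor that the Tlr7 and Tlr9 pathway activates, came nearest to the edgeR threshold among the 77 genes. It had 29.0, 31.0 and 40.3 CPM in BTZ+anti-PDL1 tumours, 19.1, 17.0 and 15.6 CPM in anti-PDL1 tumours and 15.3, 13.8 and 18.5 CPM in isotype tumours. All BTZ+anti-PDL1 tumours were above the other 6, which overlapped between groups. The log2 fold change was 1.08 ± 0.158 against isotype (edgeR adjusted p = 0.106) and 0.96 ± 0.157 against anti-PDL1 (edgeR adjusted p = 0.293). DESeq2 called both, with an adjusted p = 2.44e-06 against isotype and 9.59e-05 against anti-PDL1. Among the 12 transcription factors listed, the median was 0.11 for BTZ+anti-PDL1 against isotype, 0.025 for anti-PDL1 against isotype and 0.051 for BTZ+anti-PDL1 against anti-PDL1.

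Of 23 target and feedback genes, 21 were tested, and the log2 fold change of BTZ+anti-PDL1 against isotype was below 0 for 16 and above 0 for 5, with a median of -0.55. Against anti-PDL1 the same split, 16 below and 5 above 0, had a median of -0.32, and anti-PDL1 against isotype had 14 below and 7 above 0 with a median of -0.21. Isotype tumour 2 was the highest of the 9 tumours in several of these genes, such as Ptgs2, Cxcl1 (158 CPM) and Nfkbiz (149 CPM). In others, such as Cxcl10, Ccl5 (1.09 CPM) and Tnf (1.58 CPM), that tumour was the lowest. Medians of this list without that tumour were not computed. Cxcl10, a chemokine induced by interferon, had 77.8, 59.2 and 96.8 CPM in BTZ+anti-PDL1 tumours, 41.2, 50.7 and 46.7 CPM in anti-PDL1 tumours and 35.1, 19.5 and 50.2 CPM in isotype tumours. It was among the 5 above 0, with a log2 fold change of 1.16 ± 0.325 against isotype and 0.76 ± 0.321 against anti-PDL1 (edgeR adjusted p = 0.498 and 0.854), and DESeq2 called the first (adjusted p = 0.0103). Ptgs2, the inducible cyclooxygenase, had 131, 81.4 and 125 CPM in BTZ+anti-PDL1 tumours, 127, 168 and 168 CPM in anti-PDL1 tumours and 280, 362 and 164 CPM in isotype tumours. The log2 fold change of Ptgs2 for BTZ+anti-PDL1 against isotype was -1.25 ± 0.305 (edgeR adjusted p = 0.431, DESeq2 adjusted p = 0.000639). Ifnb1, the gene of interferon beta, had 0 to 3 counts and was not tested. Neutrophil markers, 8 genes that include Ly6g at 0 to 7 counts, summed to 34.1 to 68.3 CPM in BTZ+anti-PDL1 tumours, 74.4 to 102 CPM in anti-PDL1 tumours and 48.1 to 109 CPM in isotype tumours, and their part in the values of the target genes was not tested.

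**Figure D5:**
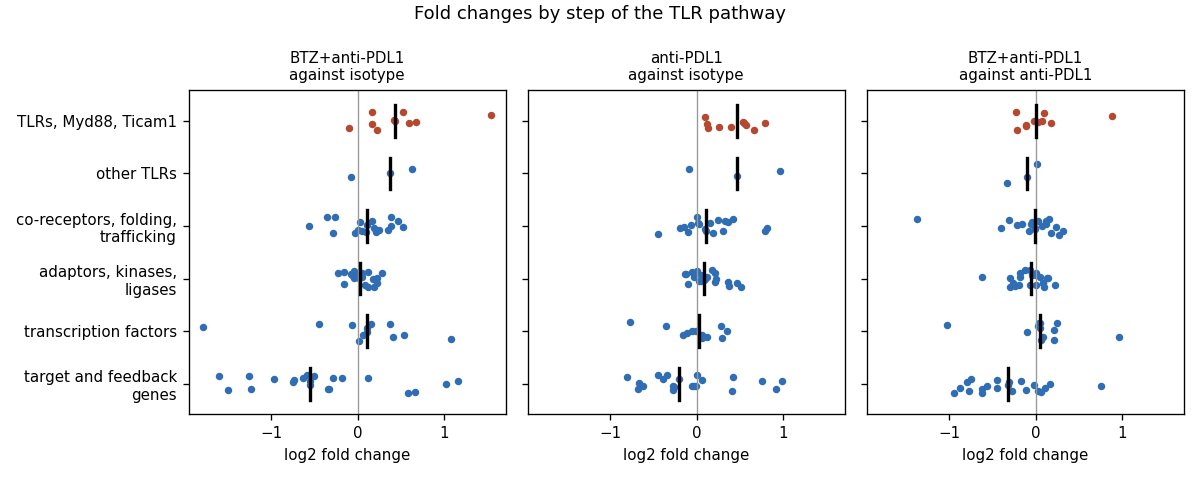
Log2 fold change of each gene tested (points) in the 10 genes (top) and in 5 lists of other pathway genes, in the 3 comparisons, with a black line at the median of each list. Against isotype, the medians of the 10 genes are 0.43 with BTZ+anti-PDL1 and 0.46 with anti-PDL1, while those of the target and feedback genes are -0.55 and -0.21. Vertical scatter within a list carries no value.

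For 9 of the 10 genes the 3 genes with the most similar profile over the 9 tumours were found by the root mean square difference of centred log2(CPM + 0.5) values. Tlr4 had no close match, the nearest being Gm17092 at 0.81, Nfat5 at 0.867 and Golph3l at 0.891, against its own spread of 1.3. Tlr7 was nearest to Gm4955 (0.268), Ms4a4b (0.295) and Igtp (0.313), with a spread of its own of 0.821. The nearest gene of the other 7 lay at a difference of 0.0483 to 0.13. These were Prkcd, Pot1b and Pnp for Myd88, Myo7a, Hacd4 and AA543186 for Tlr6, Zfp174, Ptges2 and Vhl for Ticam1, and Myo1f, Gm5141 and Fmnl1 for Tlr8. Tlr9 was nearest to Gpr65, Themis2 and Ppfia4, Tlr3 to Zfp947, Rab27a and Atg14, and Tlr1 to Il18bp, Il2rg and Wdfy4. Within the 10 genes, Myd88 and Tlr6 were the most similar pair (0.165), followed by Tlr2 and Tlr8 (0.192). Since all genes share the same 9 libraries, these differences are descriptions of the profiles.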

How the data were processed

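RNA of 9 subcutaneous tumours was sequenced, 3 in each of 3 groups. The authors deposited whole-number counts per gene, not normalised, per the file headers. Their deposited FPKM could be rebuilt from the counts, the library totals and 1 length per gene to within a relative deviation of 6e-05 over 13041 genes. Per the submitters' processing notes, HISAT2 2.0.4 and StringTie 1.3.3b were used with build mm10. The counting tool, annotation and strand setting are not given in the sources used here. Groups follow the treatment labels, and columns of the BTZ group were assigned from treatment and replicate number.

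Counts were tested with edgeR 4.0.16 under R 4.3.3 (quasi-likelihood F test), with TMM scaling, a minimum count of 10 in filterByExpr and 1 model of 3 group means. Benjamini-Hochberg adjustment ran over 14506 genes, with a threshold of 0.05. SE was derived from the fold change and F (the size of log2 fold change over √F). The procedure was tested on simulated data. The outcome is not given here, so how small a fold change it would call is not stated. Alternatives were RLE scaling, DESeq2 1.42.0, no filter, only the 6 tumours compared, a replicate block, leaving out each tumour or the 3 richest in muscle markers, and limma 3.58.1 on log2 FPKM. The 10 genes, the 5 pathway lists and the 14 marker lists were chosen with earlier results of these data known. Every one of the 10 genes is named, and from each pathway list, for naming, up to 3 genes with the smallest p were eligible in each comparison, of which a part is given in the text beside genes singled out for their role (Unc93b1, Ly96, Ifnb1). With 3 tumours a group, the edgeR model left 6 residual degrees of freedom for each gene. Its test also borrows information on the spread from the other genes, so its p-values do not rest on these 6 alone. Some results are not reported here.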

Additional observations from a re-analysis of the deposited data

How the results depend on the processing

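Of 540 values of the 10 genes under an alternative, 520 kept their direction and their side of the threshold, 2 passed it and 18 changed sign. Passing were Tlr7 in BTZ+anti-PDL1 against isotype by DESeq2 and Tlr1 in the same comparison without isotype tumour 3, so that the number of the 10 genes called there was 1 by DESeq2 and 0 to 1 when 1 tumour was left out. Sign changes came from genes near 0. Leaving out 1 tumour, the log2 fold change of Tlr4 ranged from -0.33 to 0.67 for BTZ+anti-PDL1 against isotype, from -0.41 to 0.60 for anti-PDL1 against isotype and from -0.40 to 0.55 for BTZ+anti-PDL1 against anti-PDL1. In the last comparison the ranges were -0.00099 to 0.064 for Tlr1, -0.21 to 0.058 for Tlr2, -0.076 to 0.05 for Tlr8 and -0.22 to 0.0068 for Tlr9, and without the 3 muscle-rich tumours the values there were 0.87 for Tlr4, -0.011 for Tlr1, 0.041 for Tlr8 and 0.048 for Tlr9. Against isotype, Tlr4 without those tumours was at 1.15 with BTZ+anti-PDL1 and 0.27 with anti-PDL1. Tumours were not paired by replicate number in the fit as reported. Deviations of same-numbered tumours correlated at -0.434 to 0.393, with 3 of 9 pairs over 0.1, and those of differently numbered tumours at -0.416 to 0.581. With 3 tumours a group, these correlations cannot decide whether the numbers mark pairs. With the replicate block Tlr4 was at -0.47 in BTZ+anti-PDL1 against anti-PDL1 and 0.64 in anti-PDL1 against isotype, and the genes called over the whole table were 0 for BTZ+anti-PDL1 against isotype, 1 for anti-PDL1 against isotype and 1 for BTZ+anti-PDL1 against anti-PDL1. In the same order, edgeR called 1, 2 and 2 genes as reported, DESeq2 112, 15 and 58, and edgeR without the 3 muscle-rich tumours 0, 0 and 0, with 0 to 20, 1 to 4 and 1 to 7 when 1 tumour was left out. Without the filter edgeR called 6 genes in BTZ+anti-PDL1 against isotype and 4 in BTZ+anti-PDL1 against anti-PDL1, and with only the 6 tumours compared 0 and 12. For BTZ+anti-PDL1 against isotype limma called 3 genes with an offset of 1 FPKM, 3 with 0.1 and 0 without a filter. When the gap had to be 3 times the wider side, 55 genes lay on 2 levels in place of 114, and 109 did on FPKM. The cause of these differences was not tested. Depth limits Tlr6 (62 to 118 counts) and Tlr7 in isotype tumour 2 (38 counts) most.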
